A study of Homo sapiens with 12 samples.

Results

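The 10 osteoblast genes described here are RUNX2, SP7, DLX5, COL1A1, COL1A2, ALPL, SPARC, IBSP, BGLAP and SPP1, taken by symbol from a deposited table of 36486 genes (rows summed by symbol). They were chosen because Saos-2 is an osteosarcoma line, that is, a tumour line of bone-forming origin. The questions were how these genes stood in p53-null cells, whether they shifted in cells expressing p53-WT, and whether any of them was present in the ovarian line TOV-112D. RNA-seq was available for 12 libraries. There were 2 libraries each of TOV-112D cells, which carry p53 R175H, given DMSO, UCI-1001 or UCI-1014 for 3 h, so that every TOV-112D group shares the mutant p53. There were 3 libraries each of cells labelled Saos-2 with genotype null (p53-null) or WT (p53-WT), both labelled with 16 h of induction. The p53-null cells are the parental line. By the study's methods the p53-WT cells carry a stable lentiviral construct switched on by doxycycline. UCI-1001 is the lead compound of the study and UCI-1014 a chemical analog of it, and the sources used here give no dose for the UCI-1014 libraries. Nothing in the labels says that the libraries of a group came from separate cultures, so p-values measure the spread between these libraries, which may be technical.

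Osteoblasts form bone in steps that are set by transcription factors. RUNX2 commits cells to the lineage, SP7 (osterix) acts after it, and the homeobox factor DLX5 acts alongside them, downstream of bone morphogenetic proteins. The committed cell then lays down type I collagen, which is built from the chains COL1A1 and COL1A2, and mineralizes it with the help of tissue-nonspecific alkaline phosphatase (ALPL). The non-collagenous matrix proteins are osteonectin (SPARC), bone sialoprotein (IBSP), osteocalcin (BGLAP) and osteopontin (SPP1), of which SPP1 is also made by many epithelial, immune and tumour cells.

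On GRCh38 (GENCODE 44) RUNX2 lies on the forward strand at chr6:45328157-45664349 and has 2 promoters, a distal and a proximal one, whose transcripts begin translation in different exons. The first coding bases of a transcript from each promoter are given because the transcript data are divided by these promoters further on. The capitals mark the start codon, and the stretches lie at chr6:45328727-45328771 and chr6:45422577-45422621.
RUNX2-202, distal promoter: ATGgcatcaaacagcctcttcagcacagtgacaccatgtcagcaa
RUNX2-201, proximal promoter: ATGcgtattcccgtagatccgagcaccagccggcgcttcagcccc

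RefSeq promoter windows were found for 6 of the 10 genes (RUNX2, ALPL, SPARC, IBSP, BGLAP and SPP1, in 9 windows, GRCh38.p14). The 250 bases before each start were searched on both strands for the core of the RUNX binding motif (TGTGGT, or ACCACA on the other strand), which 11% of all 35116 promoters hold. It occurred in windows of 3 genes: RUNX2 at its distal promoter, BGLAP and SPP1. The 11% is a share per window, and 9 windows of 6 genes were searched. The 3 windows are printed because RUNX2 fell and SPP1 rose with p53-WT and BGLAP is a classical RUNX2 target. Bases that fall in an annotated exon were left out, capitals mark the RUNX core and the TATA box (TATAAA, held by 10.7% of promoters), and all 3 read along the forward strand, at chr6:45328080-45328156, chr1:156241934-156242183 and chr4:87975464-87975666. A second RUNX core of the distal RUNX2 promoter, 87 to 82 bases before the start, falls in the part left out. Other motifs were searched as well. A half-site of the p53 binding motif, which 5.57% of promoters hold, lies 67 to 58 bases before the BGLAP start and is not marked. The TATA box also occurred for ALPL and IBSP. A GC box (42.6% of promoters) occurred for RUNX2, ALPL and BGLAP, and a homeobox core (4.35%) in no window.
RUNX2, distal: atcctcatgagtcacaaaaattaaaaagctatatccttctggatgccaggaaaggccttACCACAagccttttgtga
BGLAP: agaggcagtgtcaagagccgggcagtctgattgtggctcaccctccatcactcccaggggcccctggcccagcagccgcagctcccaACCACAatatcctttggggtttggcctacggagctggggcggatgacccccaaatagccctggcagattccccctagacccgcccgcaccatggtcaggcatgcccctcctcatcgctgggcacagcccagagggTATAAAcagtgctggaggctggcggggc
SPP1: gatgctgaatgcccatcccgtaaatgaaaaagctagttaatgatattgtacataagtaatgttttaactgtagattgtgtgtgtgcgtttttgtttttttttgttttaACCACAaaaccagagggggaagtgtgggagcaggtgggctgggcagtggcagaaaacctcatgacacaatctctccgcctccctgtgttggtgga
A motif match describes the letters of a window and does not show that a factor binds there.

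The libraries held between 17762027 and 24629558 counts each. Replicate 1 of p53-null and of p53-WT stood apart. A chi-square over genes, divided by its degrees of freedom so that pure counting noise gives 1, was 23 and 24.7 against the other p53-null libraries and 38 and 38.4 against the other p53-WT libraries, with 3.79 and 3.09 between those others. The test results of the osteoblast genes and the list counts of these groups are therefore given with and without both replicates 1, and the other genes named are given with all libraries. The p53 target CDKN1A, read as a check of the labels, was higher in p53-WT than in p53-null by 7.01 on the log2 scale (SE 0.19, edgeR adjusted p = 6.15e-10).

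Levels were first compared between genes in TPM, which corrects for transcript length. In cells labelled Saos-2 the osteoblast genes were low, apart from SPP1; in such bulk samples, fewer cells that make a transcript and less of it per cell cannot be told apart. Of the 10 genes, 4 averaged at least 1 TPM in p53-null cells (SPP1, RUNX2, DLX5 and COL1A1), and SPP1 alone made up 68.3% of their summed level of 23.2 to 23.7 TPM. SPP1 stood at 17.2, 15.4 and 15.6 TPM over the p53-null libraries, RUNX2 at 3.11 ± 0.78 (SD, n = 3), DLX5 at 2.12 ± 0.30 and COL1A1 at 1.25 ± 0.33 TPM. RUNX2 overlapped DLX5 in range, and the lowest DLX5 library lay above the highest COL1A1 library. SPARC (0.752 ± 0.377), BGLAP (0.120 ± 0.036), ALPL (0.0450 ± 0.0392), IBSP (0.0446 ± 0.0455) and COL1A2 (0.0106 ± 0.0184 TPM) followed. SP7 had no count in any of the 6 libraries labelled Saos-2, which allows at most 0.0481 CPM in p53-null and 0.0435 CPM in p53-WT (3 counts over each group, counting error only). The near absence of SP7, ALPL, IBSP, BGLAP and COL1A2, with COL1A1 at 27, 35 and 42 counts in p53-null, goes against the osteoblast character of the label, so these libraries are called by their label and genotype only.

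Summed over the 10 genes, TOV-112D cells held more RNA than the cells labelled Saos-2. This did not hold for every gene: SPP1 was lower than in p53-null, and RUNX2 overlapped with p53-null in range. In DMSO the 10 genes summed to 143.4 to 150.9 TPM, of which DLX5 made up 78.4%. DLX5 was at 113.2 and 117.6 TPM and COL1A1 at 22.2 and 24.0 TPM in the DMSO libraries. RUNX2 (2.80 and 2.92 TPM), SPARC (1.98 and 3.33 TPM) and ALPL (1.74 and 1.51 TPM) came next, with the range of SPARC spanning that of RUNX2. Part of these levels lay on short or intron-retaining transcripts. Of COL1A1, the principal transcript COL1A1-201 held 10.9 and 10.6 TPM and COL1A1-211, of 549 bases, 7.55 and 9.85 TPM. Of SPARC, the principal transcript SPARC-201 held 0.202 and 0.117 TPM and SPARC-202, annotated as retaining an intron, 0.729 and 1.005 TPM. BGLAP (0.849 and 0.486 TPM), COL1A2 (0.532 and 0.533 TPM), SP7 (0.0273 and 0.508 TPM) and SPP1 (0.134 and 0 TPM) stayed under 1 TPM. IBSP had no count in any TOV-112D library, which allows at most 0.082 CPM in the DMSO group. Type I collagen was uneven in its chains: COL1A1 held 935 and 895 counts in DMSO and COL1A2 only 31 and 33. Read counts of BGLAP, 1 to 6 per library, sit beside 35 to 137 counts of PMF1-BGLAP, a readthrough gene that ends in the BGLAP exons, so reads could be split between them and BGLAP is uncertain. RUNX2, COL1A1, COL1A2, SPARC and SPP1 overlap genes on the opposite strand, and whether the reads were counted by strand is not given in the sources used here.

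**Figure D1:**
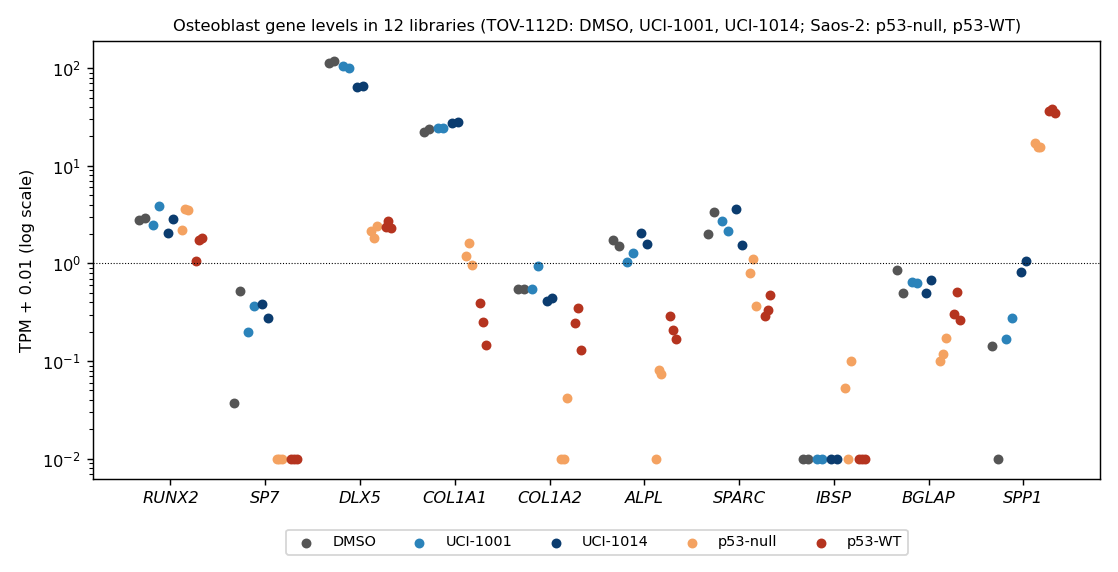
Level of each osteoblast gene in TPM plus 0.01 (log scale) in the 12 libraries, 1 point per library, coloured by group, with a dotted line at 1 TPM. DLX5 and COL1A1 were highest in the TOV-112D libraries (DMSO, UCI-1001, UCI-1014), SPP1 in the p53-null and p53-WT libraries, and points at the lower edge stand for 0 TPM.

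Marker lists for other cell types were read beside these genes. The list of 9 ovarian carcinoma and epithelial markers summed to 707.3 to 786.4 TPM in p53-null and 738.2 to 808.3 TPM in p53-WT libraries, led by the keratin KRT18 at 555.6 TPM in p53-null, with MUC16 at 0 counts in both groups and EPCAM at 0 in p53-null. The same list summed to 3.75 to 7.15 TPM in DMSO-treated TOV-112D, where KRT7, KRT18 and KRT19 were at 0 counts. PAX8 and MUC16 had 1 and 0 counts there, and EPCAM led the list at 2.81 TPM. The TOV-112D libraries are likewise called by their label only. The list of 14 other bone and connective tissue matrix genes summed to 3737 to 3859 TPM in DMSO, led by the fibrillar collagen COL3A1 at 2384 TPM, and to 14.3 to 18.6 TPM in p53-null, where BGN, POSTN and COL5A1 were at 0 counts. Of the osteocyte markers, DMP1, MEPE and SOST were at 0 counts in DMSO and MEPE, SOST and PDPN in p53-null. Chondrocyte markers summed to 11.7 to 19.1 TPM in p53-null, of which SOX9 made up 98.1%, and to 1.52 to 2.19 TPM in DMSO. Adipocyte, muscle and osteoclast lists stayed at or under 22.4 TPM in DMSO and 3.57 TPM in p53-null. What these markers have to do with the osteoblast gene levels was not tested.

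**Figure D2:**
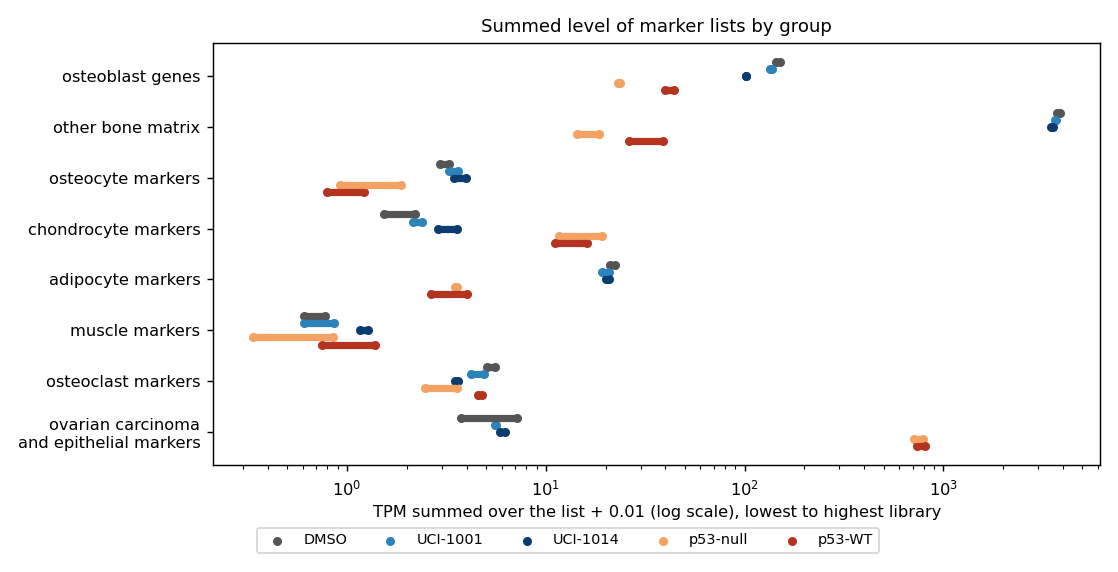
Summed TPM of 8 gene lists plus 0.01 (log scale), each bar running from the lowest to the highest library of a group. Osteoblast genes and other bone matrix genes were higher in TOV-112D groups (3737 to 3859 TPM for matrix in DMSO against 14.3 to 18.6 in p53-null), and the ovarian carcinoma and epithelial list was higher in the groups labelled Saos-2.

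Counts of p53-null and DMSO libraries were then compared in a fit of all 12 libraries with edgeR's quasi-likelihood test. Of the 10 osteoblast genes, 7 passed the filter on low counts and 6 differed at an adjusted p under 0.05, where 74.6% of all 15794 genes tested differed (37.2% higher and 37.4% lower in p53-null). ALPL, COL1A2 and SPARC did not pass this filter in the libraries labelled Saos-2 alone, and SPP1 did not in TOV-112D alone. These genes entered through the line where they were higher, so their calls lean on the counts that admitted them. On the TPM scale, where the median of all genes was lower by 0.257 (log2) in p53-null, 38.1% of calls were higher against 49.8% in the count fit. SPP1 was the 1 gene higher in p53-null, with 378, 289 and 307 counts against 2 and 0 in DMSO, a ratio of 286 with a counting interval of 78.9 to 2360 (adjusted p = 2.1e-10). DLX5 (log2 fold change -5.41, SE 0.13, adjusted p = 1.37e-13) and COL1A1 (-4.82, SE 0.13, adjusted p = 6e-13) were 42.4-fold and 28.2-fold lower in p53-null. ALPL had 0, 2 and 2 counts in p53-null against 40 and 42 in DMSO (log2 fold change -4.92, SE 0.51, adjusted p = 7.46e-07). COL1A2 had 0, 0 and 3 counts against 31 and 33, a ratio of 0.0275 with a counting interval of 0.00553 to 0.0841. SPARC was lower too, with a log2 difference of -1.58 (SE 0.32, adjusted p = 0.000481). SP7 had 1 and 7 counts in DMSO and none in p53-null. The 8 counts, taken as exact and set against a floor of 3, give a ratio of 4.55 for DMSO over p53-null. This ratio leaves out the counting error of the 8, so it is not a lower limit, and it rests on DMSO replicate 2. Without both replicates 1 the log2 fold changes were -5.39 for DLX5, -4.59 for COL1A1, -4.33 for COL1A2, -4.30 for ALPL, -1.43 for SPARC and 8.03 for SPP1, all still called. RUNX2 did not pass the test (0.39, SE 0.18, 95% interval -0.01 to 0.78, adjusted p = 0.07), its libraries overlapped, and it was called higher in p53-null without p53-null replicate 1 (0.52, adjusted p = 0.021) and without both replicates 1 (0.59, adjusted p = 0.000569). Cell line, growth medium and induction cannot be told apart in this comparison.

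Of the 72 bone genes, 66 were tested between p53-null and DMSO, and 12 were higher and 49 lower in p53-null, with the same counts for each list without both replicates 1. Of the osteogenic regulators 3 were higher, ZFHX4 the most (log2 fold change 3.92), and 9 lower, MSX2 the most (-7.80). Of the collagen processing genes 1 was higher, LOXL2 (1.09), and 12 lower, among them ADAMTS2, which was at 0 counts in p53-null. Of the other matrix genes 1 was higher, TNC (3.31), and 12 lower, COL3A1 the most, at 8015 ± 87.6 CPM in DMSO and 0.106 ± 0.022 CPM in p53-null. Of the mineralization genes 4 were higher, ENPP1 the most (2.91), and 2 lower, PHOSPHO1 the most (-2.54). Of the BMP and WNT genes 1 was higher, ID1 (3.73), and 13 lower, BMP7 the most, at 70.2 ± 1.29 CPM in DMSO and 0.0146 ± 0.0253 CPM in p53-null. TNFRSF11B (2.27 ± 0.37 CPM in p53-null and 0.0271 ± 0.0383 CPM in DMSO) was the 1 osteoclast coupling gene called, and of the osteocyte markers FGF23 was higher (1.22) and PDPN, at 0 counts in p53-null, lower. Of the epithelial markers 5 were higher, among them KRT18, which was at 0 counts in DMSO, and 2 lower, among them EPCAM, which was at 0 counts in p53-null. SOX9 (6.44) was the 1 chondrocyte marker higher, with 2 lower. PPARG (4.63) and CEBPA (-3.09) were the adipocyte markers called, no muscle marker was called, MMP9 (2.17) was the 1 osteoclast marker higher with CALCR (-2.46) the largest of 2 falls, and of the proliferation genes CCNB1 (1.17) was higher and 2 were lower, TOP2A the most (-1.30).

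With p53-WT, SPP1 rose and RUNX2 and COL1A1 fell. Of the 10 osteoblast genes, 4 passed the filter in the fit of the 6 libraries labelled Saos-2 and 3 of these differed at an adjusted p under 0.05, 1 higher and 2 lower. The background was high: 66.5% of all 14275 genes tested differed, 33.5% higher and 33% lower, so that a changed gene is the common case here. Whether groups overlap is given below as a description of the libraries only. The share of all genes whose groups do not overlap was not counted, and groups this small can separate without a change. The median log2 fold change of the 4 tested members was -0.26, against -0.01 over all genes tested.

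RUNX2, the lineage-defining factor, was at 8.48, 12.1 and 10.5 CPM in p53-null and at 4.16, 5.77 and 6.04 CPM in p53-WT. All p53-WT libraries lay below all p53-null libraries, and replicate 1 was the lowest of its group in both. The log2 fold change was -0.96 (SE 0.18, 95% interval -1.37 to -0.56, adjusted p = 0.000774), and -0.93 without both replicates 1 (adjusted p = 3.35e-05). DLX5 was at 2.07, 1.47 and 2.10 CPM in p53-null and at 2.84, 2.59 and 2.25 CPM in p53-WT. Its groups did not overlap, but the log2 fold change of 0.44 (SE 0.22, 95% interval -0.04 to 0.92) missed the threshold (adjusted p = 0.0984), as it did without both replicates 1 (0.43, adjusted p = 0.143). SP7, which acts after RUNX2, stayed at 0 counts in both groups.

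COL1A1 was at 1.24, 1.66 and 1.84 CPM (27, 35 and 42 counts) in p53-null and at 0.620, 0.398 and 0.397 CPM (14, 8 and 9 counts) in p53-WT. The groups did not overlap and the log2 fold change was -1.73 (SE 0.31, 95% interval -2.42 to -1.04, adjusted p = 0.000519), or -2.12 without both replicates 1 (adjusted p = 0.000174). Few reads carry this fall, since COL1A1 was under 2 CPM in every library labelled Saos-2. The partner chain COL1A2 did not pass the filter on low counts and had 0, 0 and 3 counts in p53-null and 7, 6 and 7 in p53-WT, which is a ratio of 6.02 with a counting interval of 1.79 to 31.6. The gene totals of the 2 type I collagen chains thus had values in opposite directions, both at trace level. By the transcript estimates, the principal COL1A2 transcript, COL1A2-201, held 0 counts in every library labelled Saos-2. The COL1A2 counts there fell on transcripts annotated as retaining an intron and on 1 absent from GENCODE 44. These counts thus do not show a change of the principal COL1A2 transcript.

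Among ALPL and the 4 non-collagenous matrix genes, SPP1 alone was abundant enough to be tested. SPP1 was at 17.4, 13.7 and 13.5 CPM in p53-null and at 44.7, 37.6 and 35.0 CPM in p53-WT. Replicate 1 was the highest of its group in both, and the groups did not overlap. The rise was 2.63-fold (log2 fold change 1.40, SE 0.14, 95% interval 1.09 to 1.71, adjusted p = 5.92e-06), and 1.42 on the log2 scale without both replicates 1 (adjusted p = 4.93e-09). ALPL had 0, 2 and 2 counts in p53-null and 12, 6 and 5 in p53-WT. SPARC had 9, 12 and 9 counts in p53-null and 4, 4 and 5 in p53-WT. Neither gene's groups overlapped, and both were under 1 CPM in all 6 libraries. By the transcript estimates, the principal transcript SPARC-201 held 0, 0 and 2.46 counts in p53-null and 0 in each p53-WT library. SPARC-202, annotated as retaining an intron, held 6, 7 and 6.015 in p53-null and 2.26, 3 and 3 in p53-WT. The principal transcript ALPL-204 held 0 in p53-null and 0, 2.56 and 0 in p53-WT. The gene totals thus do not show a change of either principal transcript. BGLAP had 1 count in each p53-null library and 4, 4 and 2 in p53-WT, a ratio of 3.01 whose counting interval of 0.775 to 17 includes 1. IBSP had 1, 0 and 2 counts in p53-null and none in p53-WT. With the filter on low counts removed, ALPL (2.41, SE 0.83, adjusted p = 0.0181) and COL1A2 (2.59, SE 0.93, adjusted p = 0.0232) were called higher as well, where 44.6% of 22805 genes were called. In DESeq2 they were not (adjusted p = 0.0658 and 0.0778).

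**Figure D3:**
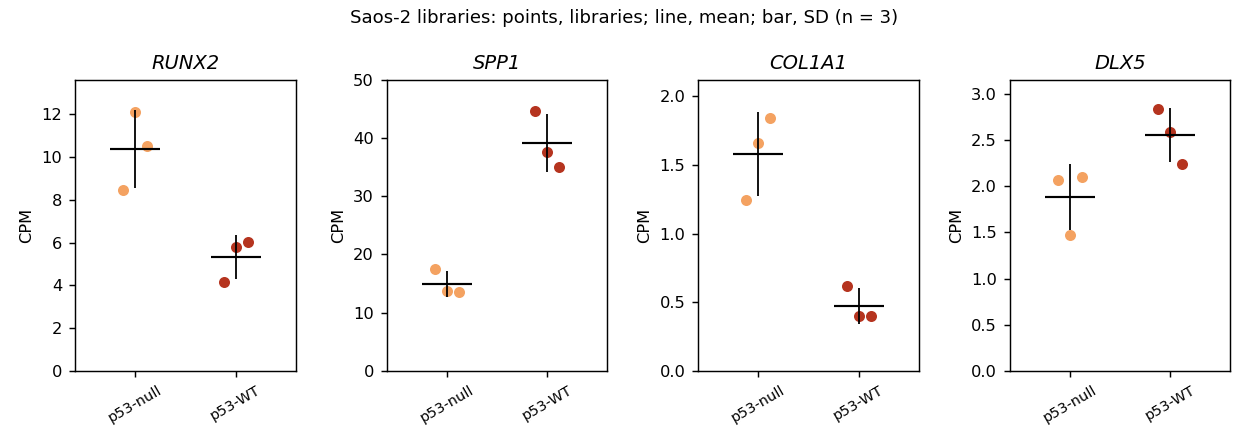
CPM of RUNX2, SPP1, COL1A1 and DLX5 in the 3 p53-null and 3 p53-WT libraries, with the mean as a horizontal line and the SD (n = 3) as a vertical bar, each panel on its own axis from 0. RUNX2 (10.4 to 5.33 CPM) and COL1A1 (1.58 to 0.472 CPM) had lower means with p53-WT and SPP1 (14.9 to 39.1 CPM) a higher one, and in all 4 panels the groups do not overlap. The share of all genes whose groups separate in this way was not counted.

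In TPM, RUNX2 went from 3.11 ± 0.78 to 1.53 ± 0.41, SPP1 from 16.1 ± 0.99 to 36.4 ± 1.75 and COL1A1 from 1.25 ± 0.33 to 0.252 ± 0.123 (mean ± SD, n = 3). On this scale the median of all genes fell by 0.215 (log2), and relative to that median the log2 changes on log2(TPM + 0.5), which understate the change of low genes, were -0.61 for RUNX2 and 1.37 for SPP1. COL1A1 changed by -1 relative to that median. Before this shift is taken off, limma gave -0.83 for RUNX2 (adjusted p = 0.0184) and 1.16 for SPP1 (adjusted p = 3.43e-05). For COL1A1 it gave -1.22 (adjusted p = 0.00261). The summed level of the 10 genes rose from 23.2 to 23.7 TPM in p53-null to 39.8 to 44.1 TPM in p53-WT, of which SPP1 made up 87.1%. Without SPP1, the largest members of p53-WT cells were DLX5 at 2.46 ± 0.23 and RUNX2 at 1.53 ± 0.41 TPM.

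The wider bone pathway moved in both directions with p53-WT. Of 72 bone genes in 7 lists, 54 were tested, 23 were higher, 20 lower and 11 not called, so that 79.6% were called where 66.5% of all genes were. The lists were drawn up with earlier results of these data known. Among 12 other osteogenic transcription regulators 4 rose and 6 fell. The largest rise among them was that of MSX1, from 2.03 ± 0.49 to 7.37 ± 0.86 CPM (log2 fold change 1.85, adjusted p = 9.7e-06). The largest fall was that of DLX6, the neighbour of DLX5, from 10.6 ± 0.21 to 2.83 ± 0.34 CPM (-1.90, SE 0.15, adjusted p = 7.25e-07). DLX6 lies 9355 bases from DLX5 on chromosome 7, and the pair is known for shared enhancers in limb and jaw. DLX6 overlaps the antisense gene DLX6-AS1, and without strand information reads of the 2 cannot be told apart.

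Of the genes that process type I collagen, 13 were tested, 4 were higher, 7 lower and 2 not called. P4HA2, a prolyl hydroxylase subunit, rose by 3.08 on the log2 scale to 164.5 ± 14.1 CPM, and its relative P4HA1 fell by 1.24 to 21.5 ± 2.26 CPM. Of the mineralization genes 3 rose and 3 fell: SMPD3, a sphingomyelinase needed for bone mineralization in mice, rose by 3.16 to 1.82 ± 0.15 CPM, and the phosphate carrier SLC20A1 fell by 1.05 to 116.2 ± 5.59 CPM. Among BMP and WNT signalling genes 8 of 14 tested rose and 3 fell. WNT5A was at 0, 1 and 0 counts in p53-null and at 19, 23 and 32 in p53-WT, and LEF1, a nuclear effector of WNT signalling, fell by 1.62. Of the osteoclast coupling genes, the macrophage growth factor CSF1 rose by 4.39 to 22.8 ± 0.81 CPM, and TNFRSF11B (osteoprotegerin, a decoy that blocks osteoclast formation) fell by 1.35 to 0.888 ± 0.223 CPM. Of other matrix genes 3 of 5 tested rose, FBN1 (fibrillin) the most, by 1.43. The 1 osteocyte gene tested was not called. Without both replicates 1, 23 bone genes were higher and 21 lower; the change lies in the osteogenic regulators (4 and 7), and the counts of the other bone lists were as given. On the TPM scale the split of calls was 15 higher to 21 lower among bone genes, and 37.7% of all calls were higher there against 50.4% in the count fit, so the balance of rises and falls depends on the scale.

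Genes of other lists moved with p53-WT as well. Of 6 proliferation genes 5 fell, MKI67 the most, by 3.95 to 17.3 ± 1.98 CPM, and PCNA rose by 0.69. Of the 9 ovarian carcinoma and epithelial markers 5 were tested, 2 rose, 1 fell and 2 were not called: KRT8 rose by 1.28 to 491.6 ± 69.9 CPM, and WT1 fell by 1.59, from 13.2 ± 0.90 to 4.39 ± 0.13 CPM. Of 5 chondrocyte markers 2 were tested and 1 rose, the cartilage collagen COL2A1, from 0, 1 and 3 counts to 126, 68 and 104. Of 5 osteoclast markers 3 were tested and all 3 rose, the phosphatase ACP5 the most, from 5, 3 and 3 counts to 32, 26 and 29. Of 6 adipocyte markers 2 were tested and CEBPA rose by 0.59, and of 4 muscle markers 2 were tested and 1 rose. Without both replicates 1 the calls were 1 higher and 5 lower for proliferation, 2 and 2 for the epithelial list, 1 and 1 for chondrocyte, 1 and 0 for osteoclast, 1 and 0 for adipocyte and 1 and 1 for muscle markers. The part of these changes in those of RUNX2, COL1A1 and SPP1 was not tested.

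In TOV-112D cells, DLX5 and RUNX2 were lower with UCI-1014 than with DMSO, and with UCI-1001 a small difference in DLX5 was the 1 that passed the test. The 6 TOV-112D libraries were fitted together, and 6 of the 10 osteoblast genes passed the filter (RUNX2, DLX5, COL1A1, COL1A2, ALPL and SPARC). Of these, 1 differed between UCI-1001 and DMSO, lower with the compound, where 15.7% of all 14177 genes tested differed (9.39% higher and 6.36% lower). For UCI-1014 against DMSO 2 differed, both lower, where 47.1% of all genes did (23.7% higher and 23.4% lower). Both comparisons share the DMSO libraries. In the direct comparison of UCI-1014 with UCI-1001, 1 of the 6 differed, lower with UCI-1014, against 31.1% of all genes (17.1% higher and 13.9% lower). With TPM in place of counts, 82.9% of the genes called with UCI-1001 were higher, against 59.6% in the count fit.

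DLX5 was at 84.9 and 87.9 CPM in DMSO, at 78.7 and 74.9 CPM with UCI-1001 and at 46.8 and 49.6 CPM with UCI-1014. The 3 groups did not overlap, which describes the libraries only. The share of all genes whose groups separate was not counted. Between UCI-1014 and DMSO the groups of COL1A1, COL1A2, SPARC and SPP1 did not overlap either, and none of these was called. Against DMSO it was lower with UCI-1014 by 1.79-fold (log2 fold change -0.84, SE 0.06, 95% interval -0.96 to -0.72, adjusted p = 1.81e-08). It was also lower with UCI-1014 than with UCI-1001 (-0.67, SE 0.06, 95% interval -0.79 to -0.55, adjusted p = 6.68e-07). With UCI-1001 the log2 fold change was -0.17 (SE 0.05, 95% interval -0.28 to -0.06, adjusted p = 0.0423), and the call was lost in DESeq2 (adjusted p = 0.23) and without any 1 of the 4 libraries compared (adjusted p from 0.0529 to 0.281).

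RUNX2 was at 7.89 and 9.20 CPM in DMSO, at 6.69 and 6.94 CPM with UCI-1001 and at 5.91 and 4.71 CPM with UCI-1014. In the same order as for DLX5, and again as a description only, its groups did not overlap in CPM. In TPM they did, with UCI-1001 at 2.44 and 3.89 and a value of 0.10 against DMSO in limma (adjusted p = 0.893), so the direction for UCI-1001 depends on the scale. The fall passed the test with UCI-1014 (log2 fold change -0.69, SE 0.16, 95% interval -1.03 to -0.36, adjusted p = 0.00203) but not with UCI-1001 (-0.33, 95% interval -0.64 to -0.01, adjusted p = 0.163), and the difference between the compounds missed the threshold (-0.37, 95% interval -0.71 to -0.03, adjusted p = 0.0979). In TPM, RUNX2 was at 2.80 and 2.92 in DMSO and at 2.03 and 2.85 with UCI-1014, and limma on log2(TPM + 0.5) gave -0.21 (adjusted p = 0.611), so this call holds for counts and not for TPM.

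Type I collagen did not pass the count test with either compound. COL1A1 was at 48.2 and 48.5 CPM in DMSO, 47.7 and 49.9 CPM with UCI-1001 and 53.04 and 50.6 CPM with UCI-1014. Its 95% intervals of -0.11 to 0.14 for UCI-1001 and -0.03 to 0.23 for UCI-1014 lie above the whole interval of DLX5 with UCI-1014. On log2(TPM + 0.5), limma gave 0.26 for UCI-1014 (adjusted p = 0.0415), so COL1A1 was called higher in TPM and not in counts. The principal transcript COL1A1-201 was at 10.9 and 10.6 TPM in DMSO and at 11.4 and 10.6 TPM with UCI-1014. Short transcripts held much of the rest. COL1A1-211 was at 7.55 and 9.85 against 9.28 and 11.6 TPM, and COL1A1-205 at 3.07 and 3.44 against 6.785 and 5.49 TPM. COL1A2 had 31 and 33 counts in DMSO, 34 and 41 with UCI-1001 and 22 and 28 with UCI-1014 (adjusted p = 0.798 and 0.465 against DMSO).

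ALPL and SPARC, the mineralizing enzyme and the collagen-binding matrix protein, were near 2 CPM. ALPL had 40 and 42 counts in DMSO, 32 and 32 with UCI-1001 and 36 and 49 with UCI-1014. SPARC had 25 and 31 counts in DMSO, 29 and 34 with UCI-1001 and 41 and 35 with UCI-1014. Neither passed a test (adjusted p from 0.153 to 0.896), and intervals such as -0.04 to 1.14 for ALPL between the compounds leave room for changes of some size. SPP1 had 2 and 0 counts in DMSO, 1 and 3 with UCI-1001 and 11 and 10 with UCI-1014, a ratio of 9.98 for UCI-1014 over DMSO with a counting interval of 2.44 to 87.8. It did not pass the filter. Without the filter its log2 fold change was 3.30 (SE 1.07, edgeR adjusted p = 0.0083), where 6894 of 22910 genes were called. DESeq2 gave it no adjusted p (unadjusted p = 0.0276), so it was not called there. SP7 and BGLAP had at most 7 counts in any TOV-112D library.

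**Figure D4:**
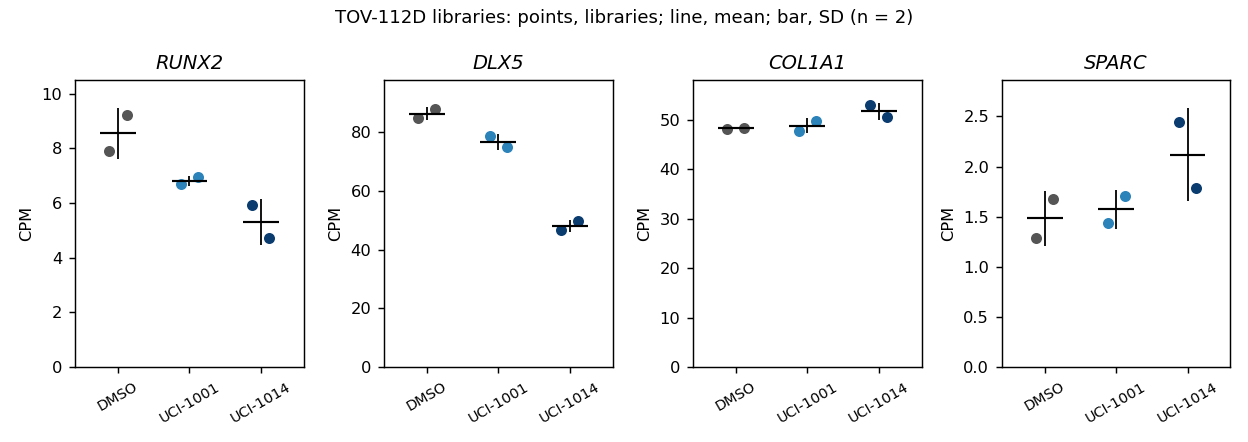
CPM of RUNX2, DLX5, COL1A1 and SPARC in the TOV-112D libraries (2 per group), with the mean as a horizontal line and the SD (n = 2) as a vertical bar, axes from 0. DLX5 means were 86.4, 76.8 and 48.2 CPM and RUNX2 means 8.54, 6.81 and 5.31 CPM in DMSO, UCI-1001 and UCI-1014, and COL1A1 stayed between 47.7 and 53.04 CPM in all 6 libraries.

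**Figure D5:**
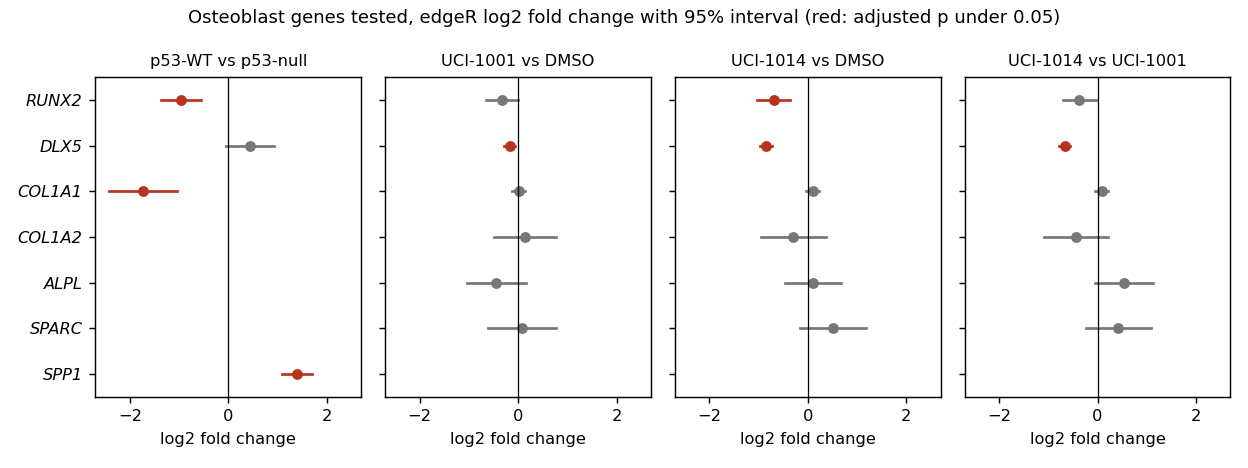
Log2 fold changes of the osteoblast genes tested in each comparison, with 95% intervals from edgeR, red where the adjusted p was under 0.05. RUNX2 and COL1A1 lie below 0 and SPP1 above 0 with p53-WT, and DLX5 lies below 0 with UCI-1014 (-0.84 against DMSO).

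Beside DLX5, its neighbour DLX6 was also lower with UCI-1014, at 426 and 431 counts in DMSO and 204 and 219 with UCI-1014 (log2 fold change -0.96, SE 0.10, adjusted p = 1.42e-06). Of the 72 bone genes, 63 were tested in TOV-112D, and 14 were higher and 14 lower with UCI-1014, a called share of 44.4% against 47.1% of all genes. Of the 12 osteogenic regulators 5 were higher and 3 lower with UCI-1014. ATF4, a stress-responsive factor that osteoblasts also need, rose by 1.17, the most of them, and DLX6 fell the most. Chosen for mention after their values were seen, MSX1 rose from 77.6 ± 1.29 to 99.7 ± 0.57 CPM (0.36, adjusted p = 1.75e-05), and MSX2 (-0.56, adjusted p = 5.81e-08) and TWIST1 (-0.54, adjusted p = 5e-06) were the others lower. Of the 14 collagen processing genes 4 rose, the collagen chaperone SERPINH1 the most, by 1.76, and 2 fell, the crosslinking enzyme LOX the most, by 0.24. Of the other matrix genes 0 rose and 3 of 13 tested fell, FBN1 the most, by 0.31. Of the 5 mineralization genes tested ENPP1 alone was called (0.71). Of the 16 BMP and WNT genes 3 rose, the WNT co-receptor LRP6 the most, by 0.38, and 6 fell, NOG (noggin, a BMP antagonist) the most, by 1.25. CSF1, the 1 osteoclast coupling gene tested, rose by 1.15, and neither of the 2 osteocyte markers tested was called. Of 3 chondrocyte markers tested 2 rose, SOX9 the most, by 1.93 to 2.05 ± 0.73 CPM, and 4 of 6 proliferation genes fell, PCNA the most, by 0.58. No epithelial, adipocyte, muscle or osteoclast marker tested was called.

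With UCI-1001, 3 bone genes were higher and 5 lower than in DMSO (12.7% against 15.7% of all genes). Of the regulators ATF4 rose by 0.44 and TWIST1 fell by 0.20, of the collagen processing genes 2 rose, SERPINH1 the most, by 0.65, COL5A1 was the 1 matrix gene called and fell by 0.20, and of the BMP and WNT genes 3 fell, AXIN2, a feedback inhibitor of WNT signalling, the most, by 0.36. No mineralization, osteoclast coupling or osteocyte gene tested was called, and of the cell type and proliferation lists PCNA alone was called and fell by 0.17. Between UCI-1014 and UCI-1001, 11 bone genes were higher and 8 lower (30.2% against 31.1% of all genes). Of the regulators 5 were higher with UCI-1014, ATF4 the most (0.72), and 3 lower, DLX6 the most (-0.72). Of the collagen processing genes 4 were higher, SERPINH1 the most (1.11), and FBN1 was the 1 matrix gene called (-0.24). Of the BMP and WNT genes 2 were higher, LRP6 the most (0.23), and 4 lower, NOG the most (-1.13). SOX9 (1.64) was the 1 chondrocyte marker called, 2 proliferation genes were lower, PCNA the most (-0.41), and no gene tested of the remaining bone and cell type lists was called.

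The per-library transcript files were used to ask which RUNX2 promoter was in use. Transcripts starting at the distal promoter held 28.3%, 57.2% and 44.5% of the RUNX2 estimated counts in p53-null and 35.1%, 68.5% and 30.4% in p53-WT. In TOV-112D the shares were 56.2% and 50.6% in DMSO, 54.0% and 29.0% with UCI-1001 and 41.8% and 28.6% with UCI-1014. By these estimates transcripts of both promoters held a share in every library. Reads shared by transcripts of the 2 promoters are divided by the estimate, so these shares do not show that both were in use. The distal share includes RUNX2-205, which starts further downstream and held at most 1 count in a library. The p53-WT and p53-null libraries overlapped, and replicates of each group lay far apart. In TOV-112D the DMSO shares lay above both UCI-1014 shares, and the UCI-1001 shares overlapped both groups. The shares were not tested. For DLX5, the principal transcript DLX5-203 and another of nearly the same length together held 81.9% to 93.4% of the estimated counts in TOV-112D and 100% in the libraries labelled Saos-2. The share of the other transcript alone was 84.9% and 37.4% in DMSO, 87.6% and 68.7% with UCI-1001 and 1.84% and 1.59% with UCI-1014. It was 100% in 1 p53-WT library against at most 2.58% in the other 5 libraries labelled Saos-2. Reads shared by such transcripts are divided by the estimate, and only the gene total of DLX5 was compared between groups.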

How the data were processed

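Per the labels and the study's methods, the authors quantified reads against GRCh38 with kallisto 0.48.0 and deposited estimated counts, TPM and effective lengths for 187626 transcripts in each library. They also deposited a table of whole-number gene counts without normalization for 40295 Ensembl identifiers. The submitters' notes name DESeq2 1.38.3 as well. The annotation release is not given in the sources used here.

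Rows were summed by symbol to 36486 genes (8043 identifiers without a symbol and 29 with a symbol read as a date were kept by identifier); each osteoblast gene has 1 identifier. Counts were tested with edgeR 4.0.16 (TMM, filterByExpr, glmQLFit, glmQLFTest, Benjamini-Hochberg adjustment over all genes tested, threshold 0.05) in R 4.3.3, in a fit per cell line, and all 12 libraries for p53-null against DMSO. CPM are counts scaled to the TMM-adjusted library size. Transcripts were matched to GENCODE 44 by identifier (87.2%, holding 91.9% to 94.8% of TPM) and summed by symbol. For DLX5 and COL1A2, 1 further transcript each was added that filled the gap to the deposited count within 1 count in all 12 libraries. For 9 of 120 listed genes the transcript sums differed by more than 1 count or identifiers were split. Intervals of ratios are exact 95% binomial intervals on the summed counts, and they and the floor of 3 counts cover counting error only.

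The osteoblast genes and all lists were chosen with earlier results of these data known. All 10 genes are named; of each list other than the check of labels the text gives counts and the called gene with the largest rise and fall (mean of at least 1 CPM in a group). Alternatives were DESeq2 size factors, no filter, DESeq2 1.42.0, identifiers singly, another set of libraries in the fit, a replicate block, limma 3.58.1 on log2(TPM + 0.5) for genes averaging 0.5 TPM, and leaving out each library. The fits were tested on simulated data. A direct check of the genotype labels is not reported here. At 2 or 3 libraries a group, no sample was tested as an outlier.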

Additional observations from a re-analysis of the deposited data

How the results depend on the processing

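With p53-WT, 3 osteoblast genes were called in the count fit and 5 with no filter on low counts. In 1 fit of all 12 libraries 7 were called (4 higher and 3 lower). More genes or libraries entered these alternatives. Of all genes, 9489 of 14275, 10180 of 22805 and 10460 of 15794 were called in these fits. ALPL, COL1A2 and SPARC entered the fit of all 12 libraries through TOV-112D, where they were higher. Leaving out 1 library gave 3 to 3. With UCI-1001 the count of 1 became 0 with DESeq2 (DLX5 alone had an unadjusted p under 0.05, 0.0399), with identifiers tested singly, in the fit of all 12 libraries, with limma on TPM, with the replicate block, and in each fit leaving out 1 library (0 to 0). With UCI-1014 against DMSO, SPP1 was called beside DLX5 and RUNX2 with no filter. Between UCI-1014 and UCI-1001 the count was 1, and 2 with no filter (SPP1 beside DLX5). The cause of these changes was not tested. Calls over all genes with UCI-1001 numbered 2232 in the count fit, 1148 with DESeq2, 409 with limma on TPM, 308 in the fit of all 12 libraries and 952 to 1843 leaving out 1 library; with UCI-1014 6677, 4702, 4206 and 3421; and between the compounds 4406, 2639, 1968 and 937. Over all settings the bone gene count with p53-WT lay between 36 and 50 (43 in the count fit).

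Replicate numbers were not shown to pair the libraries: deviations of same-numbered p53-null and p53-WT libraries correlated at 0.139, 0.0922 and 0.0749. With the number as a replicate block, 3 osteoblast genes were called with p53-WT, 0 with UCI-1001, 2 with UCI-1014 and 1 between the compounds, and 44 bone genes with p53-WT. A crossed pairing of UCI-1014 and UCI-1001, and leaving out both replicates 1 of the libraries labelled Saos-2, were chosen after seeing the data; the former gave 1 call and the latter 3.

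Of 343 log2 fold changes of single osteoblast genes under an alternative, 318 kept their direction and side of the threshold, 10 lost the call, 5 gained it and 10 changed sign, none of them called in either fit. With limma on TPM, RUNX2 (0.096) and SPARC (-0.079) changed sign with UCI-1001, and SPARC with UCI-1014 against DMSO (-0.098) and against UCI-1001 (-0.019). COL1A1 with UCI-1001 was -0.016 in the fit of all 12 libraries. Leaving out 1 library gave, with UCI-1001, -0.022 to 0.047 for COL1A1 and -0.01 to 0.286 for COL1A2 (both lowest without UCI-1001 replicate 2) and -0.097 to 0.286 for SPARC (lowest without DMSO replicate 1, and -0.048 without UCI-1001 replicate 2). With UCI-1014 it gave -0.002 to 0.222 for ALPL (lowest without UCI-1014 replicate 2). Depth limits SP7, IBSP, BGLAP, COL1A2 and ALPL: 3 counts are 0.0435 to 0.082 CPM per group, and differences near that level were not detectable.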
